A study of Mus musculus with 26 samples.

Results

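Maz, Patz1, Zfp143, Yy1, Vezf1 and Zfp263 encode zinc finger DNA-binding proteins that are known or proposed to act beside CTCF at chromatin boundaries. The 6 genes were chosen by name, as 6 of the 55291 genes listed in each of 2 tables of RNA-seq counts. All 6 passed edgeR's filter on low counts in both tables. Their RNA levels were followed across 10 groups of mouse cells, 26 libraries in all, to ask whether they change as embryonic stem cells (ESCs) become neural progenitor cells (NPCs) and whether they respond to the CTCF and RNA mutants of the study.

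All groups derive from the E14TG2a (E14) ESC line, and NPCs were collected after 2 days of differentiation in N2B27 medium. In the rescue experiment (8 libraries, 2 in each of 4 groups), both alleles of the endogenous CTCF carried an mAID-eGFP degron. These cells also carried OsTIR1(F74G) at Rosa26, an mCherry reporter at Hb9, and a doxycycline-inducible Flag-Halo-CTCF at Tigre, which was either WT or lacked part of zinc finger 1 (ΔZF1). All 4 groups, here called ESC-WT and ESC-ΔZF1 and, after differentiation, NPC-WT and NPC-ΔZF1, received 1 µM 5-Ph-IAA and 1 µg/ml doxycycline for 24 hours, a treatment meant to replace the endogenous protein with the rescue protein, and controls and mutants shared these alleles and agents. Each rescue protein was expressed in a single line, so the line and the protein cannot be told apart. In the truncation experiment (18 libraries, 3 in each of 6 groups), untreated parental E14 WT cells were compared with lines in which an eGFP cassette with an SV40 polyadenylation signal, which ends the transcript early, was inserted in both alleles of Podxl (Podxl pA) or Grb10 (Grb10 pA). The labels name no separate clones of these lines. The shortened RNA, the inserted cassette with its eGFP, the lost protein and other traits of an edited line therefore cannot be told apart. The study describes the libraries of a group as biological replicates, and the labels do not say whether they came from separate cultures. The p-values measure the spread between libraries of a group, estimated for each gene over all groups of an experiment together. In the rescue experiment, p-values of ESC comparisons therefore also carry the spread of the NPC-WT libraries.

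CTCF binds DNA through an array of zinc fingers and halts cohesin as it extrudes loops, which places loop anchors and domain boundaries. Other zinc finger factors bind near CTCF sites or at promoters that contact them. MAZ, VEZF1 and PATZ1 recognise G-rich DNA, and VEZF1 is known for protecting a globin insulator from silencing. ZNF143, the human name for the product of Zfp143, activates promoters and is found at promoter-anchored contacts. YY1 forms dimers that can bridge enhancers and promoters. ZNF263, the product of Zfp263, carries SCAN and KRAB domains and binds GGA-rich DNA.

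Depth on genes ranged from 6425179 to 28730435 counts per library in the rescue experiment and from 1907505 to 8845087 in the truncation experiment. Podxl fell in the Podxl pA line (to -2.73 relative to E14 WT on the log2 scale for ESCs and -3.45 for NPCs) and Grb10 in the Grb10 pA line (-1.89 and -3.86), as their labels state. Summed pluripotency markers (9 genes) lay between 4134 and 6229 CPM (counts scaled to the library total) in ESC libraries and between 590 and 887 in NPC libraries. Summed neural progenitor markers (8 genes) lay between 21.6 and 50.7 CPM in ESC libraries and between 50.1 and 143.5 in NPC libraries, although Fabp7 was at 0 in 8 of the 10 groups and Hes5 at 0 in 4. The 2 NPC-WT libraries differed from each other far more than other replicates did. Their chi-square per degree of freedom over genes was 63.1, against 1.69 to 27.6 in the other replicate pairs. Fold changes that rest on these libraries are also given without each of them, for the 6 genes and for list genes named as changed. Levels, their order and ranges, list medians, marker counts and correlations rest on both libraries. A fit without 1 of these 2 libraries leaves NPC-WT with 1 library. That library is then assumed to vary like the other groups, so values from such fits are given without a p.

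In GENCODE M21 (GRCm38), Maz lies on chromosome 7 from 127022130 to 127027037 on the minus strand. The other members lie on plus strands, with Zfp143 on chromosome 7 from 110061217 to 110095394, Patz1 on chromosome 11 from 3288874 to 3309083, Vezf1 on chromosome 11 from 88068279 to 88084729, Yy1 on chromosome 12 from 108792973 to 108820148 and Zfp263 on chromosome 16 from 3744093 to 3750790. All 6 are annotated as protein coding. Counting ignored strand, and Patz1 shares 605 of its 5904 exon bases (10.2%) with Gm12592 on the other strand and 88 (1.49%) with Gm11944, while Zfp143 shares 109 bases (3.13%) with AA474408 on the other strand, so reads of these partners cannot be separated. The other 4 members share no exon base with another gene.

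The promoters of Vezf1, Patz1 and Zfp143 are shown because these 3 genes changed most between ESCs and NPCs. RefSeq start sites on GRCm38.p6 were used, with a window of 300 bases for each (250 before and 50 after the start site), and all 6 members matched. Capitals mark short motifs found by searching both strands for GGNGGCAG (a core of the CTCF motif), GCCATNTT (YY1), ACTACAA (ZNF143), GGGAGGG (MAZ) and GGAGGAG (ZNF263), whose matches may share bases. Bases inside annotated exons are left out except around a match.
Vezf1, chr11:88068029-88068283, plus strand: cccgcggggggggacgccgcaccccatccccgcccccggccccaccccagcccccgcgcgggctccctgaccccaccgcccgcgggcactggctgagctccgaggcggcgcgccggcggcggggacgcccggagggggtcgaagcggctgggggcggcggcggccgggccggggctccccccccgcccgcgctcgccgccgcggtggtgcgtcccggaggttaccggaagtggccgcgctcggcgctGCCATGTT
Patz1, upstream match, chr11:3290268-3290297, plus strand: gcGGGAGGGgaGGTGGCAGctgcgtttgca
Patz1, downstream match, chr11:3290401-3290430, plus strand: gcggcaatgtgGGGGGCAGtgccccgctgg
Zfp143, chr7:110061555-110061709, plus strand: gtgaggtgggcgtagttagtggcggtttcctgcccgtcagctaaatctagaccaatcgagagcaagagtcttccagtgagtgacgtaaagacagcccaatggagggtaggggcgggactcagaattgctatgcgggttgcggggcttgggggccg
The Vezf1 window holds 84.0% G and C, beside a median of 52.67% over 32851 promoter windows. It has a YY1 motif that begins 3 bases before the start site, a motif present in 6.05% of these 32851 windows. A CTCF core motif lies on its minus strand from 88068302 to 88068309, within the first exon, and 12.6% of all windows hold this motif. Of the 2 Patz1 windows, the one at the downstream start site has 2 CTCF core motifs and a MAZ motif, the latter found in 22% of all windows. None of the 5 motifs was found in the Zfp143 windows, which says only that these letters are absent there. A ZNF263 motif was present in 18% of all windows and in those of Maz, Patz1 and Yy1, and the ZNF143 motif, present in 3.24%, was in no window of the 6 genes. These matches describe the sequence, and binding was not measured here. The windows of the 6 genes ran from 55.67% to 87.33% G and C. The shares of all windows were not matched for G and C content.

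Maz had the highest level of the 6 in every group. Levels of different genes are compared as TMM-adjusted CPM per kb of merged exons. In ESC-WT, Maz stood at 55.7 ± 0.571 CPM per kb (SD, n = 2), followed by Patz1 at 24.7 ± 0.402, Yy1 at 19.8 ± 0.546, Vezf1 at 13.99 ± 0.851, Zfp143 at 12.5 ± 1.25 and Zfp263 at 9.14 ± 0.615, and no neighbours in this order overlapped. In ESCs of E14 WT, the order was Maz at 92.7 ± 13.0 CPM per kb (SD, n = 3), Yy1 at 19.7 ± 0.817, Patz1 at 17.3 ± 0.540, Zfp143 at 14.03 ± 2.11, Vezf1 at 12.7 ± 1.11 and Zfp263 at 9.36 ± 0.428, where Zfp143 and Vezf1 could not be told apart. In NPCs of E14 WT, Vezf1 ranked 3 at 20.9 ± 2.32 CPM per kb, where its libraries overlapped those of Yy1 at 23.8 ± 1.21, and Patz1 moved down to 12.3 ± 0.420.

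Across the 10 groups, the mean level of Maz ranged 1.25-fold within the rescue experiment and 1.26-fold within the truncation experiment, and that of Yy1 1.22-fold and 1.23-fold. These ranges compare group means, and single libraries of a group could differ more. The 2 NPC-WT libraries stood at 47.7 and 67.3 CPM per kb for Maz and at 17.9 and 23.1 for Yy1. By group means both genes held their place, with Maz first in all 10 groups and Yy1 in place 2 or 3. Vezf1 ranged most, 2.75-fold and 1.98-fold, and held places from 2 to 6. The 2.75-fold range of Vezf1 uses the mean of NPC-WT, whose libraries stood at 19.5 and 33.6 CPM per kb. Patz1 ranged 2.09-fold and 1.98-fold, Zfp143 1.85-fold and 1.66-fold and Zfp263 1.61-fold and 1.51-fold. Among tested genes ranked by CPM per kb, Maz lay above 95.1% to 96.9% of genes, whereas Zfp263 lay above 52.6% to 73.0%. With the length of the longest transcript in place of merged exons, the order of the 6 was the same in 4 of the 10 groups, and Maz was first in all 10.

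**Figure D1:**
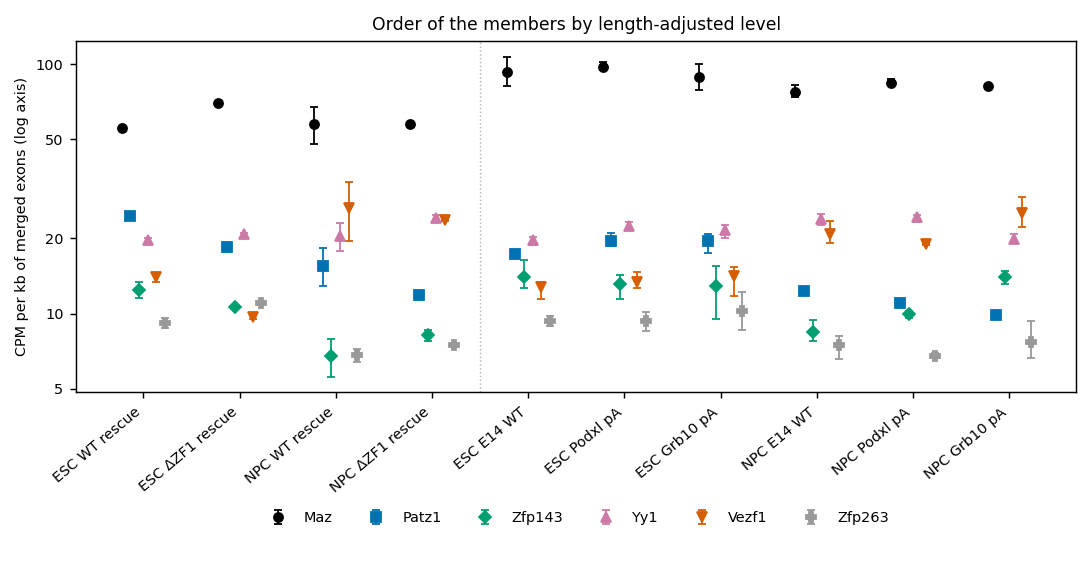
Level of the 6 genes in each of the 10 groups, as TMM-adjusted CPM per kb of merged exons on a log axis; symbols are means and bars span the lowest to the highest of the 2 libraries (rescue experiment, left of the dotted line) or 3 libraries (truncation experiment). Maz is highest in every group, at 55.7 to 97.2 CPM per kb, and Vezf1 stands higher in NPCs than in the ESCs of each line.

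Below Maz, the order differed among the remaining groups. In ESC-ΔZF1 the order was Maz, Yy1, Patz1, Zfp263, Zfp143 and Vezf1, with no overlap between neighbours, so that Vezf1 was the lowest of the 6 at 9.66 ± 0.226 CPM per kb (SD, n = 2). In ESCs of Podxl pA and of Grb10 pA the order was Maz, Yy1, Patz1, Vezf1, Zfp143 and Zfp263. Vezf1 overlapped Zfp143 in both lines, and in Grb10 pA Yy1 also overlapped Patz1 and Zfp143 overlapped Zfp263. In NPC-ΔZF1, NPCs of E14 WT and NPCs of Podxl pA the order was Maz, Yy1, Vezf1, Patz1, Zfp143 and Zfp263, with overlap of Yy1 and Vezf1 in the first and second of these groups and of Zfp143 and Zfp263 in the second. In NPC-WT, Vezf1, Yy1 and Patz1 followed Maz with overlapping libraries, and Zfp263 overlapped Zfp143. In NPCs of Grb10 pA, Vezf1 came second at 25.2 ± 3.62 CPM per kb (SD, n = 3) and Zfp143, at 13.97 ± 0.831, stood above Patz1, at 9.89 ± 0.179, with no overlap between neighbours.

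Differentiation changed Vezf1 and Patz1 in opposite directions. Genes are called dysregulated at an adjusted p (edgeR's quasi-likelihood test, Benjamini-Hochberg over all genes tested) no higher than 0.05 with a log2 fold change, up or down, of 0.5 or more. By this rule 3 of the 6 members were dysregulated in NPC-WT relative to ESC-WT (41.9% of all 16641 genes tested), 3 in NPC-ΔZF1 relative to ESC-ΔZF1 (37.3%), 2 in E14 WT (32.8% of 13268), 2 in Podxl pA (31.8%) and 2 in Grb10 pA (34.6%). These counts stand beside a background in which 31.8% to 41.9% of all genes changed. The median log2 fold change of the 6 was -0.20, -0.33, -0.30, -0.29 and -0.12 in the 5 lines in this order, beside medians of all genes from -0.021 to 0.019. In bulk libraries such as these, fewer cells of a type and less RNA per cell cannot be told apart.

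**Figure D2:**
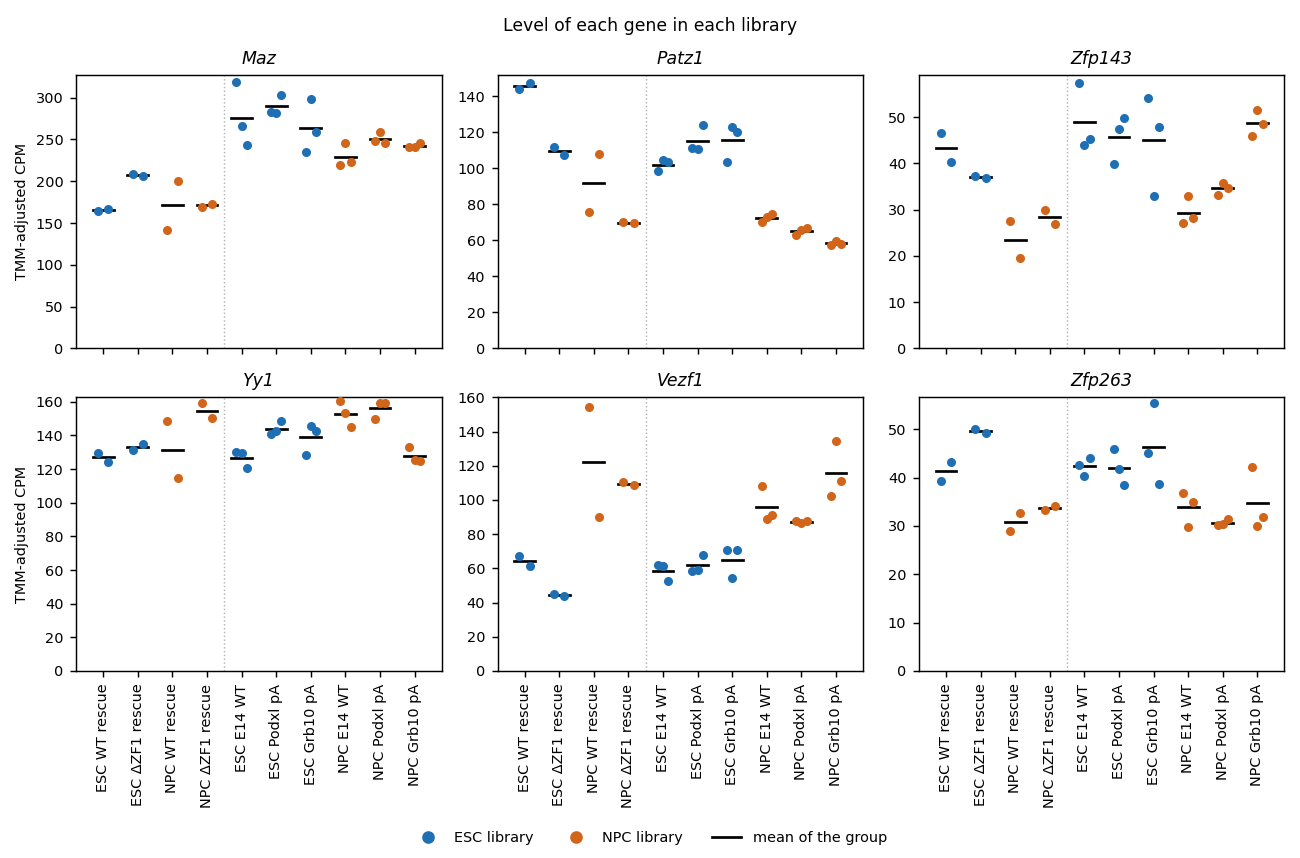
TMM-adjusted CPM of each gene in each library, with ESC libraries in blue, NPC libraries in orange and the mean of each group as a black line; the rescue experiment (2 libraries per group) is left of the dotted line and the truncation experiment (3 per group) right of it, and each axis starts at 0. Vezf1 is higher and Patz1 lower in every NPC library than in the ESC libraries of its own line, and the 2 NPC-WT libraries are far apart for Vezf1, at 155 and 89.9 CPM.

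Vezf1 rose in NPCs of all 5 lines. In the rescue experiment it was at 67.1 and 61.6 CPM in ESC-WT and 155 and 89.9 in NPC-WT, and at 45.2 and 43.7 in ESC-ΔZF1 and 110.5 and 108 in NPC-ΔZF1. In the truncation experiment it was at 61.7, 61.2 and 52.6 CPM in ESCs of E14 WT, 58.3, 59.3 and 67.7 in those of Podxl pA and 70.5, 54.3 and 70.6 in those of Grb10 pA. It was at 108, 88.6 and 91.3 CPM in NPCs of E14 WT, at 87.8, 86.8 and 87.5 in those of Podxl pA and at 102, 135 and 111 in those of Grb10 pA. Every NPC library exceeded every ESC library of its line. The log2 fold change was 0.93 (SE 0.21, adjusted p = 0.0041) in WT rescue, 1.30 (SE 0.21, adjusted p = 0.000625) in ΔZF1 rescue, 0.69 (SE 0.11, adjusted p = 1.4e-05) in E14 WT, 0.52 (SE 0.11, adjusted p = 0.000475) in Podxl pA and 0.81 (SE 0.11, adjusted p = 6.9e-07) in Grb10 pA.

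The size of the Vezf1 rise in WT rescue rested on the NPC-WT libraries, with a log2 fold change of 0.50 without replicate 1 and 1.29 without replicate 2. Without ESC-WT replicate 2, which leaves 1 library in that group, it was 0.87 at an adjusted p of 0.0502. In Podxl pA it fell just under the fold cutoff without ESC replicate 1 (0.48) or 2 (0.49), with adjusted p = 0.00493 and 0.00532. The rise did not differ detectably between ΔZF1 and WT rescue, with a difference in log2 fold change of 0.37 (SE 0.29, adjusted p = 0.53) and a 95% confidence interval from -0.28 to 1.01, nor between Podxl pA and E14 WT, with -0.17 (SE 0.16, adjusted p = 0.76) and an interval from -0.50 to 0.16, nor between Grb10 pA and E14 WT, with 0.12 (SE 0.16, adjusted p = 0.723) and an interval from -0.21 to 0.44.

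Patz1, whose product also carries a BTB domain and an AT hook, was lower in NPCs of all 5 lines. It was at 144 and 148 CPM in ESC-WT and 76.0 and 108 in NPC-WT, and at 112 and 107 in ESC-ΔZF1 and 70.1 and 69.6 in NPC-ΔZF1. In E14 WT it went from 98.4, 104 and 103 CPM in ESCs to 70.0, 73.1 and 74.9 in NPCs. In Podxl pA the ESCs held 111, 110.5 and 124 CPM and the NPCs 63.0, 65.8 and 66.9, and in Grb10 pA the ESCs held 103, 123 and 120.4 CPM and the NPCs 57.6, 59.6 and 57.9. Every NPC library lay below every ESC library of its line. The fall passed both cutoffs in 4 of the 5 lines, with log2 fold changes of -0.67 (SE 0.15, adjusted p = 0.00411) in WT rescue, -0.65 (SE 0.15, adjusted p = 0.00528) in ΔZF1 rescue, -0.81 (SE 0.084, adjusted p = 7.96e-09) in Podxl pA and -0.98 (SE 0.083, adjusted p = 1.39e-10) in Grb10 pA. In E14 WT it was -0.49 (SE 0.085, adjusted p = 2.84e-05), just under the fold cutoff, and -0.50 and past the cutoff without ESC replicate 1. In WT rescue the value was -0.43 without NPC-WT replicate 1, under the fold cutoff, and -0.93 without replicate 2.

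Zfp143 fell in NPCs of WT rescue and E14 WT. It was at 46.5 and 40.4 CPM in ESC-WT against 27.6 and 19.5 in NPC-WT, and at 37.2 and 36.9 in ESC-ΔZF1 against 30.0 and 26.9 in NPC-ΔZF1. E14 WT had 57.3, 44.0 and 45.3 CPM in ESCs against 27.1, 32.9 and 28.2 in NPCs. Podxl pA had 39.9, 47.5 and 49.8 CPM against 33.3, 35.8 and 34.7, and Grb10 pA 54.1, 33.0 and 47.9 CPM against 45.9, 51.6 and 48.5. ESC and NPC libraries overlapped only in Grb10 pA. The log2 fold change was -0.86 (SE 0.17, adjusted p = 0.00222) in WT rescue and -0.71 (SE 0.15, adjusted p = 0.000219) in E14 WT, both past the cutoffs, -0.38 (SE 0.16, adjusted p = 0.0886) in ΔZF1 rescue and -0.39 (SE 0.14, adjusted p = 0.0273) in Podxl pA, both under the fold cutoff, and 0.081 (SE 0.13, adjusted p = 0.648) in Grb10 pA. In WT rescue it was -1.12 without NPC-WT replicate 1 and -0.62 without replicate 2.

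Zfp263 was lower in NPCs of each line, by a smaller log2 fold change than Patz1 in each. Its group means were between 41.3 and 49.6 CPM in ESCs and between 30.7 and 34.7 CPM in NPCs. It passed both cutoffs only in ΔZF1 rescue, with a log2 fold change of -0.56 (SE 0.12, adjusted p = 0.00345), and otherwise ran from -0.47 (adjusted p = 0.00662) in Podxl pA to -0.34 (adjusted p = 0.0502) in E14 WT, with -0.43 (adjusted p = 0.0139) in WT rescue and -0.38 (adjusted p = 0.0199) in Grb10 pA. In WT rescue it was -0.35 without NPC-WT replicate 1 and -0.52 without replicate 2. Without NPC Grb10 pA replicate 1, the value in Grb10 pA was -0.55, then past the cutoffs. ESC and NPC libraries overlapped only in Grb10 pA.

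Maz and Yy1 passed the cutoffs in none of the 5 lines. Group means of Maz ran from 166 to 289 CPM in ESCs and from 171 to 251 CPM in NPCs, with log2 fold changes from -0.28 (adjusted p = 0.14) in ΔZF1 rescue to 0.044 (adjusted p = 0.822) in WT rescue. In E14 WT, Maz had -0.27 (adjusted p = 0.0189), below the fold cutoff, and its ESC and NPC libraries overlapped. Group means of Yy1 ran from 127 to 144 CPM in ESCs and from 128 to 156 CPM in NPCs. Its log2 fold change was highest in E14 WT, 0.27 (adjusted p = 0.00447), with every NPC library above every ESC library, and lowest in Grb10 pA, -0.11 (adjusted p = 0.205). The other values of Yy1 were 0.055 (adjusted p = 0.743) in WT rescue, 0.22 (adjusted p = 0.194) in ΔZF1 rescue and 0.12 (adjusted p = 0.182) in Podxl pA. Without NPC-WT replicate 1 or 2, Maz in WT rescue stood at 0.28 or -0.21 and Yy1 at -0.13 or 0.24.

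**Figure D3:**
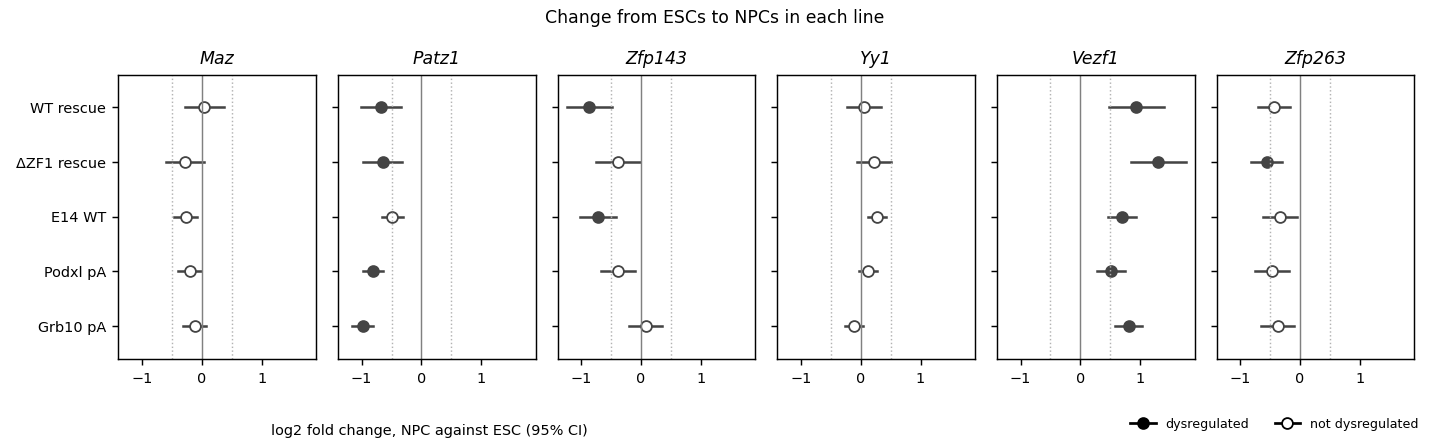
Log2 fold change of each gene in NPCs relative to ESCs of the same line, with its 95% confidence interval from edgeR; filled symbols passed both cutoffs and dotted lines mark the fold cutoff of 0.5. Vezf1 is to the right of 0.5 in all 5 lines, from 0.52 to 1.30, Patz1 lies between -0.98 and -0.49, and Zfp143 lies left of 0 except in Grb10 pA.

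Markers of other cell types moved with differentiation as well. All 12 extraembryonic endoderm markers rose in NPC-ΔZF1 relative to ESC-ΔZF1 and 9 of 12 in NPC-WT relative to ESC-WT, and in each of the 3 lines of the truncation experiment all 11 tested rose. Their summed level was 116 to 349.6 CPM in ESC libraries, 802 to 1028 in NPC-WT, 5542 to 5694 in NPC-ΔZF1, 1033 to 1344 in NPCs of E14 WT, 1950 to 2137 in those of Podxl pA and 802 to 1008 in those of Grb10 pA, and none of the 12 was at 0 in an NPC group. Summed surface ectoderm markers were 2770 to 4100 CPM in NPC-WT and 1094 to 1153 in NPC-ΔZF1, where all 7 rose over ESCs, but 119 to 152 in NPCs of the truncation experiment. Summed neuron markers were 206 to 339.5 CPM in ESC libraries and 60.6 to 141 in NPC libraries, and summed mesoderm markers did not exceed 76.0 CPM in any library. The part of these cells in the changes of the 6 genes was not tested.

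The ΔZF1 mutant was compared with WT rescue to ask how the genes respond when CTCF lacks part of zinc finger 1. None of the 6 members was dysregulated in ESC-ΔZF1 relative to ESC-WT (3.61% of all genes tested were) or in NPC-ΔZF1 relative to NPC-WT (17.6%). With DESeq2 the counts were also 0, and at an unadjusted p under 0.05 they were 3 of 6 in ESCs (18.1% of all genes) and 1 of 6 in NPCs (35.9%). The median of the 6 was -0.076 in ESCs and 0.069 in NPCs, beside -0.0057 and -0.0026 for all genes. Patz1 and Vezf1 had the lowest values, and both lie on chromosome 11, whose 1323 tested genes were lower as a whole in the ΔZF1 line, where the median gene stood at -0.46 (ESCs) and -0.57 (NPCs), against -0.0089 to 0.044 and -0.037 to 0.17 for the autosomes other than chromosomes 8 and 11.

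Patz1 was at 144 and 148 CPM in ESC-WT and 112 and 107 in ESC-ΔZF1, which gave -0.41 (SE 0.15, adjusted p = 0.164) on the log2 scale, at the 56.7th percentile of its chromosome. In NPCs it was -0.39 (SE 0.15, adjusted p = 0.0877). Both libraries of ΔZF1 lay below both of WT in each cell type. When the offsets carried the chromosome 11 median the values became 0.043 in ESCs and 0.18 in NPCs, so that Patz1 stood above the median of its chromosome in both. Vezf1 had -0.53 (SE 0.21, adjusted p = 0.21) in ESCs, from 67.1 and 61.6 to 45.2 and 43.7 CPM, and -0.17 (SE 0.20, adjusted p = 0.584) in NPCs, where the libraries overlapped. With the chromosome in the offsets its values were -0.074 in ESCs (adjusted p = 0.927) and 0.40 in NPCs. For both genes the values with offsets restate the distance from the chromosome median, because that same median was put in. The part of chromosome 11 in the changes of Patz1 and Vezf1 was not tested.

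The ESC value of Vezf1 passed the cutoffs when low counts were not filtered (-0.51, adjusted p = 0.0201) and when only the 4 ESC libraries were fitted (-0.52, adjusted p = 1.78e-05), the only settings in which a member was dysregulated in ESC-ΔZF1. Neither of these settings took the lower median of chromosome 11 into account. In the main fit, the p of this ESC value also carried the spread of the NPC-WT libraries, at 155 and 89.9 CPM for Vezf1. The fit of only the 4 ESC libraries did not carry it. In NPCs the values changed with the NPC-WT library used. Without replicate 1 and without replicate 2, Patz1 stood at -0.63 and -0.14, Zfp143 at 0.55 and 0.028, and Vezf1 at 0.28 and -0.51.

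The other 4 members lie outside chromosome 11. In ESC-ΔZF1, Maz had 0.33 (adjusted p = 0.27), Zfp263 0.26 (adjusted p = 0.295), Yy1 0.070 (adjusted p = 0.855) and Zfp143 -0.22 (adjusted p = 0.562). In NPC-ΔZF1, Zfp143 had 0.26 (adjusted p = 0.289), Yy1 0.23 (adjusted p = 0.215), Zfp263 0.14 (adjusted p = 0.434) and Maz 0.00032 (adjusted p = 0.999). Without NPC-WT replicate 1 and without replicate 2, Yy1 stood at 0.43 and 0.044, Zfp263 at 0.046 and 0.21, and Maz at -0.23 and 0.25. In the same comparison of NPCs, all 12 extraembryonic endoderm markers rose, and of 7 surface ectoderm markers 4 fell and 1 rose. Of 5 tested neural progenitor markers 2 rose and 1 fell, of 5 neuron markers 1 rose and 1 fell, and of 4 mesoderm markers 1 rose. Of 9 pluripotency markers 2 fell and 0 rose. The part of these markers' cells in the values of the 6 genes was not tested.

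In the test of whether the ΔZF1 effect differs between NPCs and ESCs, 0 of 6 members passed the cutoffs, beside 2.7% of all genes. DESeq2 gave 0 too, and 0 had an unadjusted p under 0.05 (18.3% of all genes). The largest difference was that of Zfp143, 0.48 (SE 0.24, adjusted p = 0.311), with a 95% confidence interval from -0.044 to 1.01. Without NPC-WT replicate 1 and without replicate 2, the difference stood at 0.75 and 0.22 for Zfp143, at 0.80 and -0.010 for Vezf1, at -0.56 and -0.092 for Maz, at 0.36 and -0.046 for Yy1, at -0.21 and 0.26 for Patz1 and at -0.20 and -0.057 for Zfp263.

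**Figure D4:**
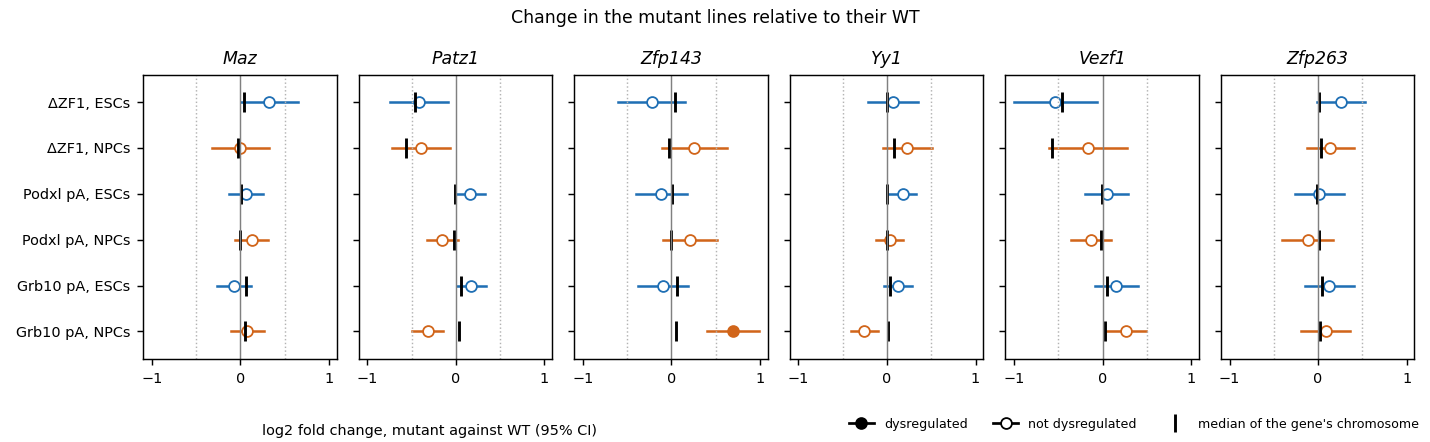
Log2 fold change of each gene in the mutant lines relative to WT of the same experiment, with its 95% confidence interval, for ESCs in blue and NPCs in orange; vertical ticks mark the median of all tested genes on the gene's own chromosome and the filled symbol passed both cutoffs. For Patz1 and Vezf1 the ticks of ΔZF1 lie at -0.46 and -0.57, and only Zfp143 in NPCs of Grb10 pA is filled, at 0.70.

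Podxl pA and Grb10 pA were compared with E14 WT to ask how the 6 genes differ in lines where these CTCF-bound RNAs end early. In Podxl pA, no member was dysregulated in ESCs (0.339% of all genes were), in NPCs (0.55%) or in the difference between them (0.098%). DESeq2 also gave 0 in each, and at an unadjusted p under 0.05 there were 1, 0 and 1 members (9.2%, 10.2% and 10.2% of all genes). Log2 fold changes of the 6 ran from -0.11 to 0.18 in ESCs, and in NPCs from -0.15 to 0.21, with medians of 0.054 and -0.044. In NPCs of Podxl pA, 6 of 11 tested extraembryonic endoderm markers rose over E14 WT and 1 of 4 neural progenitor markers fell. Of 9 pluripotency markers 1 rose and 0 fell there. The 95% confidence intervals of all 12 values of the 6 genes lay between -0.41 and 0.52.

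In Grb10 pA, Zfp143 was higher than in E14 WT in NPCs. It was at 45.9, 51.6 and 48.5 CPM in Grb10 pA against 27.1, 32.9 and 28.2 in E14 WT, a log2 fold change of 0.70 (SE 0.14, adjusted p = 0.000555), and its lowest Grb10 pA library exceeded the highest E14 WT library. It was the only 1 of the 6 members that was dysregulated in NPCs (16.6% of all genes were), and it stayed so with each library left out in turn (0.64 to 0.81). At an unadjusted p under 0.05 there were 4 of 6 members in NPCs (39.3% of all genes). In ESCs of Grb10 pA no member was dysregulated (9.09% of all genes were), DESeq2 gave 0 as well, and 1 member had an unadjusted p under 0.05 (28.8% of all genes). Zfp143 had -0.098 (SE 0.14, adjusted p = 0.697) there, with libraries that overlapped widely (54.1, 33.0 and 47.9 CPM against 57.3, 44.0 and 45.3 CPM).

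The effect on Zfp143 differed between NPCs and ESCs by 0.79 (SE 0.20, adjusted p = 0.0152), the only member dysregulated in this difference (5.9% of all genes were). Its 95% confidence interval ran from 0.39 to 1.20. Without ESC E14 WT replicate 1, whose value of 57.3 CPM was the highest of its group, the difference was 0.65 with an adjusted p of 0.0607. Without ESC Grb10 pA replicate 2, which had the lowest value and in which the 10 most abundant genes took 15.5% of the counts, it was 0.64 with an adjusted p of 0.0188. In the test of the difference with all libraries, 3 of 6 members had an unadjusted p under 0.05 (22% of all genes).

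Patz1 and Yy1 were lower in NPCs of Grb10 pA by amounts under the fold cutoff. Patz1 had -0.32 (SE 0.086, adjusted p = 0.0067), from 70.0, 73.1 and 74.9 CPM in E14 WT to 57.6, 59.6 and 57.9 CPM. Yy1 had -0.26 (SE 0.073, adjusted p = 0.00971), from 161, 153 and 145 CPM to 133, 125 and 125 CPM. In both genes every Grb10 pA library lay below every E14 WT library. The effects differed between NPCs and ESCs by -0.49 (SE 0.12, adjusted p = 0.0115) for Patz1 and -0.38 (SE 0.10, adjusted p = 0.0277) for Yy1, also under the fold cutoff. That of Patz1 passed it without ESC Grb10 pA replicate 1 (-0.57), ESC E14 WT replicate 2 (-0.51), NPC Grb10 pA replicate 2 (-0.50) or NPC E14 WT replicate 1 (-0.52).

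Vezf1 had 0.27 (adjusted p = 0.0578) in NPCs of Grb10 pA, Maz 0.078 (adjusted p = 0.565) and Zfp263 0.084 (adjusted p = 0.692). In ESCs, the 6 log2 fold changes lay between -0.098 and 0.18, with a median of 0.12 against 0.081 in NPCs. Neural progenitor markers moved with these NPC values, with 3 of 4 tested lower in Grb10 pA than in E14 WT and a summed level of 50.1 to 61.1 CPM against 118 to 134, with Fabp7 and Hes5 at 0 in Grb10 pA. Neuron markers were lower too, with 2 of 4 tested and a sum of 60.6 to 62.3 CPM against 128 to 139. Of 2 tested mesoderm markers 1 rose, and their sum was 62.3 to 76.0 CPM against 33.5 to 36.9. Of 5 tested surface ectoderm markers 1 rose and 1 fell. Of 9 pluripotency markers 3 rose and 2 fell, and their sum was 827 to 887 CPM against 684.5 to 796. The part of these cells in the values of Zfp143, Patz1 and Yy1 was not tested. In Grb10 pA the median gene of chromosome 8 stood at -0.49 (ESCs) and -0.48 (NPCs), and no member lies there. Of the extraembryonic endoderm markers, 4 of 11 tested fell in NPCs of Grb10 pA.

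The wider CTCF machinery was summarised from 3 lists, CTCF and cohesin (11 genes), other CTCF partners (11) and relatives and partners of the 6 members (10, of which 8 were tested). Their counts stand beside shares of all genes of 3.61% in ESC-ΔZF1 and 17.6% in NPC-ΔZF1. These shares were 9.09% in ESCs and 16.6% in NPCs of Grb10 pA. In NPCs against ESCs they were 41.9% in WT rescue and 32.8% in E14 WT. In the CTCF and cohesin list, 1 of 11 was dysregulated in ESC-ΔZF1, Ctcf itself, at 0.57 (adjusted p = 0.0161), with a list median of 0.17 beside -0.0057 for all genes. In NPC-ΔZF1, Ctcf at 0.78 (adjusted p = 0.000666) and Stag2, which encodes a cohesin subunit, at 0.67 (adjusted p = 0.0243) rose, with a list median of 0.33 beside -0.0026. Without NPC-WT replicate 1 and without replicate 2, Ctcf stood at 0.82 and 0.72 and Stag2 at 1.04 and 0.36. Reads of Ctcf include those of the rescue transgene, so this gene does not report the endogenous locus alone.

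In Grb10 pA, Ctcf and the gene of the cohesin loader subunit Mau2 fell in ESCs, at -0.64 (adjusted p = 1.03e-06) and -0.70 (adjusted p = 1.18e-06), and Mau2 fell in NPCs, at -0.60 (adjusted p = 2.45e-06), with Ctcf at -0.44 (adjusted p = 5.03e-05) under the fold cutoff. Both lie on chromosome 8, whose median gene was lower in this line. The list medians were -0.090 and -0.098, beside 0.014 and 0.0082 for all genes. In NPCs against ESCs, Mau2 rose at 0.60 (adjusted p = 0.00182) and Wapl, which releases cohesin, fell at -0.56 (adjusted p = 0.0197) in WT rescue, while in E14 WT only Stag2 of the 11 changed, at 0.97 (adjusted p = 1.32e-08). In WT rescue without NPC-WT replicate 1 and without replicate 2, Mau2 stood at 0.73 and 0.47 and Wapl at -0.90 and -0.27. Ctcf had -0.30 (adjusted p = 0.0213) in WT rescue and -0.10 (adjusted p = 0.253) in E14 WT. The list medians were -0.13 and 0.0090, beside 0.011 and -0.0085 for all genes.

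Of the other CTCF partners, Npm1, encoding the nucleolar protein nucleophosmin, fell in ESC-ΔZF1 at -0.50 (adjusted p = 0.0237), and Top2b, encoding topoisomerase II beta, and Ybx1, encoding an RNA-binding protein, rose in NPC-ΔZF1 at 0.58 (adjusted p = 0.0396) and 0.55 (adjusted p = 0.0046). Without NPC-WT replicate 1 and without replicate 2, Top2b stood at 0.95 and 0.28 and Ybx1 at 0.64 and 0.45. Npm1 lies on chromosome 11, whose median gene was lower in the ΔZF1 line. The list medians were 0.10 and 0.042. In Grb10 pA, 0 of 11 passed in ESCs, and Ddx5, encoding an RNA helicase, fell in NPCs at -0.54 (adjusted p = 2.74e-05), with list medians of 0.024 and -0.015. In NPCs of WT rescue, Chd4 rose at 0.57 (adjusted p = 0.00329) and Adnp at 0.52 (adjusted p = 0.0425), and Parp1 fell at -1.10 (adjusted p = 0.00014) and Npm1 at -0.80 (adjusted p = 9.61e-05). With NPC-WT replicate 1 and then replicate 2 left out, Chd4 stood at 0.75 and 0.39, Adnp at 0.61 and 0.41, Parp1 at -0.88 and -1.34 and Npm1 at -0.85 and -0.73. In NPCs of E14 WT, Top2b rose at 0.82 (adjusted p = 1.41e-08), and Parp1 and Ldb1 fell at -0.59 (adjusted p = 8.11e-07) and -0.58 (adjusted p = 2.87e-05). The medians of these 2 comparisons were -0.032 and 0.078.

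Among relatives and partners of the members, Thap11, whose product binds with ZNF143 and HCFC1 at promoters, was the 1 of 8 that changed in NPC-ΔZF1, at -0.75 (adjusted p = 0.00643), and the 1 that changed in NPCs of Grb10 pA, at -0.63 (adjusted p = 0.000164). It rose in NPCs of WT rescue, at 0.82 (adjusted p = 0.00137), where Zfp143 fell. Zfp42, a relative of Yy1 and a pluripotency marker, fell in NPCs, at -3.57 (adjusted p = 5.83e-07) in WT rescue and -2.18 (adjusted p = 2.57e-14) in E14 WT, and in ESCs of Grb10 pA, at -0.72 (adjusted p = 3.89e-05). Thap11 and Zfp42 also lie on chromosome 8. Trim28, a corepressor of KRAB zinc finger proteins, fell in NPCs of WT rescue at -0.66 (adjusted p = 0.00955). In NPCs of E14 WT, Zfp281 rose at 0.52 (adjusted p = 0.000245), and Zfp148 and Rybp fell at -0.65 (adjusted p = 1.61e-05) and -0.65 (adjusted p = 2.21e-05). With NPC-WT replicate 1 and then replicate 2 left out, Thap11 stood at -0.97 and -0.52 in NPC-ΔZF1 and at 1.03 and 0.57 in NPCs of WT rescue, where Zfp42 stood at -3.29 and -3.87 and Trim28 at -0.37 and -0.995. None of the 8 changed in ESC-ΔZF1. The list medians were 0.048 in ESC-ΔZF1, -0.028 in NPC-ΔZF1, -0.22 in ESCs and -0.18 in NPCs of Grb10 pA, -0.20 in NPCs of WT rescue and -0.14 in NPCs of E14 WT. None of the 30 tested genes of the 3 lists was dysregulated in Podxl pA or in any of the 3 differences between NPCs and ESCs.

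Genes with the most similar course over the 10 group means were picked by Pearson's r of log2 CPM, centred within each experiment, among the 7413 genes whose mean normalized count was 100 or more in both experiments. The points share lines, libraries and a split into ESCs and NPCs, so these are descriptions. Vezf1 was most like Wnk2 (r = 0.983), Ogfr (0.982) and Dennd6a (0.975). Patz1 was most like 8030462N17Rik (0.982), Cluh (0.975) and Arhgef10l (0.966), of which Cluh is also on chromosome 11. Zfp143 was most like Mfsd14a (0.982), Znrd1 (0.976) and Jkamp (0.966), and Zfp263 most like Amt (0.983), Creld1 (0.977) and Atp5b (0.974). The courses of Maz and Yy1 were less closely shared, at 0.909 for Larp7, 0.901 for Foxp4 and 0.895 for Pogz, and at 0.904 for Btaf1, 0.900 for Dnajc10 and 0.900 for Prkd3. High r was shared by many genes. By r with Vezf1, Patz1, Zfp143 and Zfp263, the top percent of the 7413 genes began at 0.937, 0.9275, 0.887 and 0.945. For Maz and Yy1 the top percent began at 0.7765 and 0.753. Between members, r ranged from -0.91 for Vezf1 and Zfp263 to 0.77 for Patz1 and Zfp263 over the 10 groups.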

How the data were processed

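Both tables hold whole-number read counts per gene that the authors deposited, made from paired-end RNA-seq reads aligned to mm10 with STAR and assigned to genes with featureCounts, with counting named as unstranded in the files; the gene annotation used is not given in the sources used here. The rescue table and the truncation table were fitted separately. From these counts, edgeR 4.0.16 in R 4.3.3 was run on all libraries of a table with filterByExpr, TMM factors, a mean per group and the quasi-likelihood F test. Adjusted p-values are Benjamini-Hochberg over all genes tested, 16641 in the rescue table and 13268 in the truncation table, and a gene was called dysregulated where the adjusted p was no higher than 0.05 and the log2 fold change 0.5 or more in size. CPM values use TMM library sizes, and CPM per kb uses merged exon lengths from GENCODE M21. Samples were grouped by their labels, and 3 columns of the truncation table that match no sample were not used. Authors' fold changes were not used. The genes, lists and comparisons were chosen with earlier results of these data known. All 6 genes are named in every comparison, and of the lists the called genes with the largest changes, up to 3 each way, and Ctcf. Alternatives were DESeq2 1.42.0, RLE factors, other filters and cutoffs, TMM from genes outside chromosomes 8 and 11, a chromosome 11 offset, only the compared libraries, the replicate number as a block, and each library left out. The fit was tested on simulated counts.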

Additional observations from a re-analysis of the deposited data

Results flagged for a closer look

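The effect of Grb10 pA on Zfp143 differed between NPCs and ESCs by 0.79 in log2 fold change (edgeR, adjusted p = 0.0152). It was singled out because the test of the difference itself passed both cutoffs, which it did for no other of the 6 genes. Zfp143 was at 45.9, 51.6 and 48.5 CPM in NPCs of Grb10 pA against 27.1, 32.9 and 28.2 CPM in those of E14 WT, higher in 3 of 3 libraries, while ESC libraries of the 2 lines overlapped. Over the 12 fits that leave out a library the difference ran from 0.64 to 0.95 and the adjusted p from 0.00434 to 0.0607, the latter without ESC E14 WT replicate 1.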

How the results depend on the processing

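Of the values of single genes under the alternatives, 1246 kept their direction and side of the cutoffs, 6 no longer passed, 26 newly passed and 42 changed sign, all of the last among values that had not passed. Of the counts of dysregulated members, 203 stayed within 1.5 times and 17 moved; the cause of these shifts was not tested. In ESC-ΔZF1 the count was 1 with no filter on low counts and with only the compared libraries. For these settings the count is given without the share of all genes called. Without the fold cutoff it was 3 for Grb10 pA in NPCs (28.1% of all genes), 3 for the Grb10 pA difference (7.02%), 5 for E14 WT NPCs against ESCs (46.7%) and 4 for Podxl pA NPCs against ESCs (46.4%), and at an adjusted p of 0.01 the Grb10 pA difference had 0. With a library of the truncation table left out, the count ran from 0 to 2 in the Grb10 pA difference. In NPCs against ESCs the count ran from 1 to 2 in Podxl pA, 2 to 3 in E14 WT and 2 to 3 in Grb10 pA. The share of all genes called in these fits is not given here. In the rescue table such fits leave 1 library in a group, which is assumed to vary like the other groups. They are no measure of stability, and their counts are not given. Maz in NPC-ΔZF1 was -0.000993 with RLE factors, -0.0057 with no filter, -0.051 with TMM from genes outside chromosomes 8 and 11, -0.00913 with DESeq2 and -0.011 with only the compared libraries. The ΔZF1 difference of Patz1 was -0.00145 with no filter, -0.00802 with that TMM and -0.00843 with DESeq2. With the chromosome 11 offset, Patz1 stood at 0.043 (ESC-ΔZF1) and 0.18 (NPC-ΔZF1), and Vezf1 was 0.40 in NPC-ΔZF1. These sign changes follow from the chromosome median that was put into the offsets. The Grb10 pA difference of Zfp263 was 0.020 with no filter. Signs also turned with a library left out, with these ranges. For Maz they were -0.17 to 0.047 (Grb10 pA in ESCs), -0.21 to 0.28 (NPC-WT against ESC-WT), -0.015 to 0.18 (Podxl pA in ESCs), -0.23 to 0.25 (NPC-ΔZF1) and -0.051 to 0.14 (Podxl pA difference). For Patz1 the range was -0.21 to 0.26 (ΔZF1 difference). For Vezf1 they were -0.011 to 0.081 (Podxl pA in ESCs), -0.51 to 0.28 (NPC-ΔZF1) and -0.010 to 0.80 (ΔZF1 difference). For Yy1 they were -0.13 to 0.24 (NPC-WT against ESC-WT), -0.0013 to 0.063 (Podxl pA in NPCs) and -0.046 to 0.36 (ΔZF1 difference). For Zfp143 they were -0.25 to 0.052 (Grb10 pA in ESCs), -0.068 to 0.25 (Grb10 pA NPCs against ESCs) and -0.20 to 0.026 (Podxl pA in ESCs). For Zfp263 they were -0.011 to 0.24 and -0.10 to 0.17 (Grb10 pA in ESCs and NPCs), -0.050 to 0.054 (Podxl pA in ESCs) and -0.22 to 0.11 (Grb10 pA difference). The order of levels was the same in 4 of 10 groups with the longest transcript, and 6 of the 18 most similar genes were also among the top by Spearman's rho. Deviations of same-numbered libraries from their group means correlated at -0.137 to 0.132 over 12 pairs in the rescue table. In the truncation table the correlations ran from -0.209 to 0.154 over 45 pairs. With 2 libraries per group the deviations mirror each other, so each rescue value appears under both numbers. Libraries of different numbers were not compared, so these values cannot show whether same-numbered libraries shared a culture or batch. With the replicate number as a block no count of members changed (the Zfp143 difference was 0.79, adjusted p = 0.0229), and the count of all genes in ESC-ΔZF1 went from 601 to 409. Depths of 1907505 to 28730435 counts limit the precision of the lower genes.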
